A study of Mus musculus with 6 samples.

Results

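The protein part of the cytosolic ribosome was measured in 2 kinds of pluripotent mouse cell, ES cells (mES) and post-implantation epiblast stem cells (EpiSC), through every array probe whose gene symbol is that of a small subunit (Rps, Rpsa) or large subunit (Rpl, Rplp) protein. The kinases that carry the letters Rps6k were left out. This choice by name took 129 of 41174 probes, and they stood for 77 of the 20689 genes tested, 32 of the 40S subunit and 45 of the 60S subunit. The rule itself uses names and no measured value, but it was set with earlier results of these data known. All 77 genes had at least 1 probe well above background. The array held a single probe for 39 genes and several for 38, and 3 dim probes of Rps2, Rps6 and Rps19 did not enter the tests.

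A cytosolic ribosome joins a small subunit, which holds the mRNA and reads its codons, to a large subunit, which forms the peptide bond and passes the new chain out through a tunnel. Each subunit carries a single copy of most of its proteins on a frame of ribosomal RNA, and the genes for these proteins are among the most strongly expressed of any proliferating cell. Their mRNAs begin with a run of pyrimidines, the terminal oligopyrimidine (TOP) tract, through which the mTOR pathway controls how well they are translated. When assembly is disturbed, some free ribosomal proteins bind Mdm2, the ubiquitin ligase that keeps the transcription factor p53 low. Stem cells are known for a translation rate that differs between their states, which arrays of RNA do not measure.

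The 3 mES samples were the ES cell lines ESF122 (replicate 1), ESF175/1 (replicate 2) and a line that one label calls ESF58/2 and another ESF58/1 (replicate 3). The EpiSC samples were EpiSC-5 (replicate 1) and EpiSC-7 at passage 20 (replicate 2) and at passage 25 (replicate 3), and thus came from 2 lines. All 6 cultures lay on irradiated mouse embryonic fibroblasts (MEFs) in DMEM with serum replacement, and the medium held LIF for mES and FGF2 for EpiSC. Each of the 4 slides, which were also the scans, held samples of 1 cell type, so slide, scan and medium cannot be told apart from cell type. The number of arrays limits the precision, and as the labels tell cultures apart only by line and passage, p-values reflect the spread of these arrays, which may be technical in part.

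The cell type labels matched their marker lists. All 9 listed ES markers were lower in EpiSC, among them Dppa5a (log2 fold change -10.23 ± 0.26, SE, n = 3 per group, limma, adjusted p = 1.56e-05) and Klf4 (-3.42 ± 0.53, adjusted p = 0.00675), and all 9 listed EpiSC markers were higher, among them the Nodal antagonist Lefty1 (3.56 ± 0.47, adjusted p = 0.00402) and the growth factor Fgf8 (4.99 ± 0.35). No array held MEFs alone, so the source of fibroblast marker RNA was not tested. Such RNA was present on every array: 17 of 18 listed fibroblast markers were tested, each well above background on all 6 arrays. Their summed level, in multiples of the array's 75th percentile signal, ran from 31.5 to 136 in mES and from 68.3 to 175 in EpiSC, lowest in mES replicate 2 and EpiSC replicate 3. Of the 17, Tagln (1.68) and Acta2 (0.88, named after its value was seen) were higher in EpiSC and none was lower, where 11.4% of all genes were higher and 14.9% lower. The collagen gene Col1a2 had 0.28, but the median of the 17 was -0.34 and 9 of them lay below 0. In such bulk samples fewer cells of a type and less RNA per cell cannot be told apart.

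The sequences at the transcription start of 9 genes are given first because the results turn on them or on their paralogs. Each line holds 30 bases of the sense strand from GRCm38.p6 (RefSeq), 15 before and 15 from the annotated start, in lower case with the longest run of pyrimidines that begins with C (at least 5 bases) in capitals.
Rps6: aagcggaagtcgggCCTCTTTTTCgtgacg
Rps26: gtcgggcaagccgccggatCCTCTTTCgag
Rps27: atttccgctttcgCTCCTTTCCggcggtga
Rps27l: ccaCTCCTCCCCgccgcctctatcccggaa
Rpl22: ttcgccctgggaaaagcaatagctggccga
Rpl22l1: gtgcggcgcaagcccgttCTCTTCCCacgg
Rpl37: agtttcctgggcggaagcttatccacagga
Rpl27a: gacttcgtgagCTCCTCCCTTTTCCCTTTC
Rpl39l: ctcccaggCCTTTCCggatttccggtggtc
They lie at chr4:86857353-86857382 (Rps6, minus strand), chr10:128626492-128626521 (Rps26, minus), chr3:90213634-90213663 (Rps27, minus), chr9:66946071-66946100 (Rps27l, plus), chr4:152325711-152325740 (Rpl22, plus), chr3:28805493-28805522 (Rpl22l1, plus), chr15:5116598-5116627 (Rpl37, plus), chr7:109519180-109519209 (Rpl27a, plus) and chr16:10170213-10170242 (Rpl39l, plus). Rps27l and Rpl22 each have a further annotated start. The run spans the annotated start in Rps6, Rps27 and Rpl27a, begins shortly after it in Rps26 and Rpl22l1 and ends before it in Rps27l and Rpl39l, while the windows of Rpl22 and Rpl37 shown here hold none.

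RefSeq promoters, of 250 bases before and 50 after the start, were at hand for 57 of the 77 genes (67 promoters). The pyrimidine run stood within 15 bases of the start, on the sense strand, in 38 of these 67 promoters (56.7%) and in 36.4% of all 32851 promoters of the table. Over the whole window and both strands, CCGGAAG, the letters bound by Ets family factors such as Gabpa, stood in 37.3% of the ribosomal protein promoters and in 8.86% of all. ATGGCG, the core that YY1 binds, stood in 26.9% against 8.93%, and the GC box GGGCGG in 59.7% against 35.7%. The TATA letters TATAAA stood in 8.96% against 13.6%. The motifs were counted independently, so that a stretch could count for more than 1, and a match of letters is a description of these windows.

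Values below are log2 processed signals minus the array's 75th percentile, and a difference is EpiSC minus mES. The probes of these genes were bright: the median member lay at the percentiles 99.4 to 99.6 of all genes on each of the 6 arrays. Between 70.5% and 74.4% of the member probes per array were read from the low-gain scan and scaled up, against 1.88% to 2.49% of all spots, and 0 spots were saturated. The median over the 77 genes was 7.30, 7.35 and 7.34 on mES replicates 1 to 3, and 6.68, 7.05 and 6.66 on EpiSC replicates 1 to 3. All 3 EpiSC medians lay below all 3 mES medians, the mES arrays lay close together (7.33 ± 0.03, SD, n = 3) and the EpiSC arrays spread more (6.80 ± 0.22). EpiSC replicate 2 was the highest EpiSC array for 74 of the 76 genes with all 3 EpiSC values, and the median range within a group was 0.17 in mES and 0.45 in EpiSC.

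**Figure D1:**
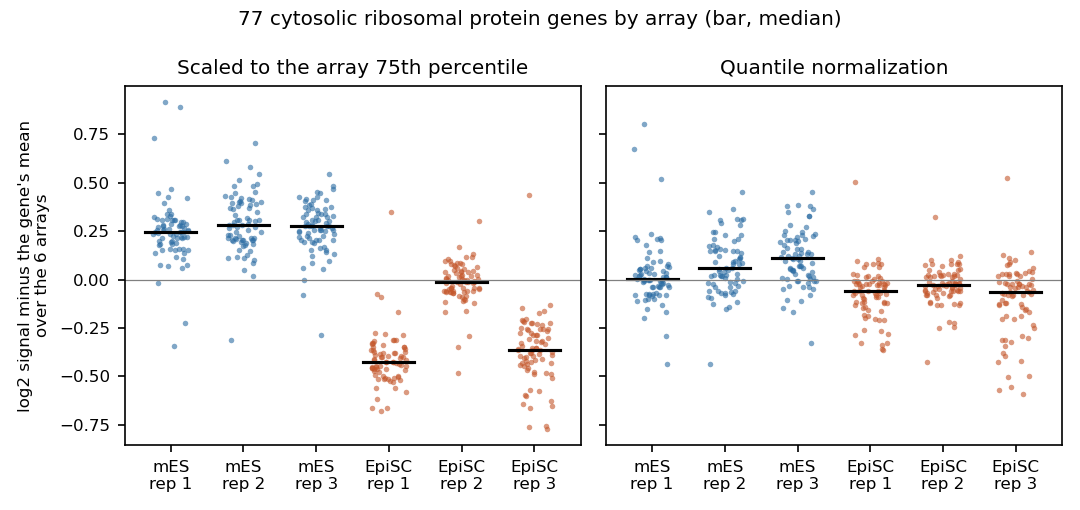
Log2 signal of each of the 77 ribosomal protein genes minus that gene's mean over the 6 arrays, by array, with the median as a bar. With scaling to the 75th percentile (left) the 3 mES arrays lie above the 3 EpiSC arrays and EpiSC replicate 2 lies between them, and with quantile normalization (right) the medians lie close to 0.

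Most ribosomal protein genes had slightly lower values in EpiSC, close to one another, and the size of the difference depended on how the arrays were scaled. The median difference of the 77 genes was -0.52 (1.44-fold lower), against -0.13 for all genes, and 76 of the 77 differences were below 0. Of the 77, 18 (23.4%) were lower at adjusted p under 0.05 (limma) and 0 higher, where 14.9% of all genes were lower and 11.4% higher. At an unadjusted p under 0.05 the counts were 57 lower and 0 higher, where 5107 of all 20689 genes were lower and 3500 higher. With percentile scaling, every EpiSC value available lay below every mES value for 70 genes (90.9%), as for 29.3% of all genes. That count was not made after quantile normalization. There 62 of the 77 differences were below 0, as were 10782 of the 20689 for all genes. Values of Rplp1, Rps2, Rps16 and Rpl5, among others, then overlapped between the groups, while those of Rpl22 and Rps27l, among others, did not. With percentile scaling and the brightest probes the differences lay close together. Their SD was 0.20 over the 77 genes against 1.23 over all genes, most of which are dimmer. The SD of the members was 0.39 with the lowest probe, and 0.52 over the 22 genes with probes never scaled up from the low gain.

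The count of 18 changed with the arrays included, as did the share of all genes called lower. It was 0 without mES replicate 1, mES replicate 2, EpiSC replicate 1 or EpiSC replicate 3 (29, 26, 18 and 20 at an unadjusted p under 0.05), 4 without mES replicate 3 and 34 without EpiSC replicate 2, while the median difference stayed between -0.64 and -0.44. In these fits 9.22%, 7.88%, 8.8%, 7.41%, 13.5% and 13.4% of all genes were lower, in the order given. Without mES replicate 2 and EpiSC replicate 3, the arrays lowest in fibroblast markers, the count was 0 (3 at an unadjusted p under 0.05). The median was then -0.46, and 3.48% of all genes were lower.

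Above level 0 the median difference of the other genes fell as brightness rose. At lower levels it did not follow brightness, with -0.14 between -9 and -4, -0.19 between -4 and -2 and -0.03 between -2 and 0. The 199 other genes with a mean level between 6 and 10, where 62 of the 77 ribosomal protein genes lie, had a median difference of -0.37 against -0.52 for those 62. Between 4 and 6 the medians were -0.26 for 924 other genes and -0.58 for 10 ribosomal protein genes. Between 2 and 4 they were -0.19 for 2650 other genes and -0.14 for 5 ribosomal protein genes. Quantile normalization, which gives all arrays the same distribution of signals, brought the median of the 77 genes to -0.08 (1.06-fold lower) and the count to 2 lower and 0 higher, where 13.8% of all genes were lower and 13.5% higher. Cyclic loess, which removes differences that depend on brightness, gave -0.11 and the same 2 genes, Rpl22 and Rps27l, where 13.3% of all genes were lower and 14% higher. As 62 of the 77 genes lie between levels 6 and 10 beside 199 others, both methods can also remove a difference that these bright genes truly share. Whether they did was not tested. Relative to the median of all genes the 77 lay at -0.39 with the 75th percentile, at -0.05 with quantile normalization and at -0.09 with cyclic loess. The array median and no scaling also give -0.39, by construction, since they differ from the 75th percentile only by a constant per array. Before scaling, the median member signal was 98986, 112085 and 99856 on the mES arrays and 100159, 89723 and 83515 on the EpiSC arrays, which overlap, while the 75th percentile was 630, 685 and 618 against 974, 679 and 826.

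**Figure D2:**
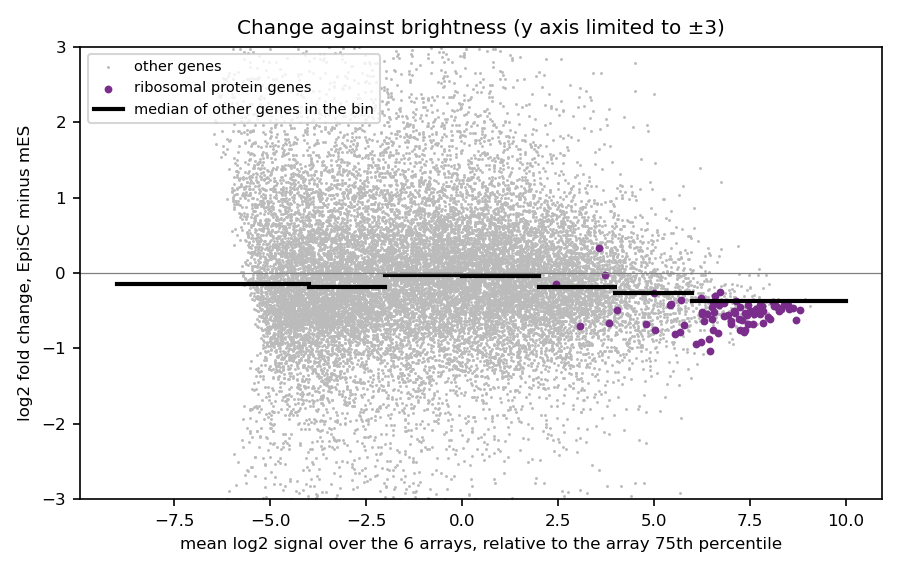
Difference (EpiSC minus mES, log2) against mean log2 signal relative to the 75th percentile for all genes (grey) and the 77 ribosomal protein genes (purple), with the median of other genes per range of brightness as a black bar. The bars fall from -0.04 between levels 0 and 2 to -0.37 between 6 and 10, and most purple points lie below the last bar. Below level 0 the bars lie between -0.19 and -0.03.

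When each array was instead centred on the median of the 77 genes, so that only unequal change among them remained, 70 of the 77 lay within 0.3 of that median. None passed the threshold in limma, and 3 had an unadjusted p under 0.05: Rpl22 (-0.50), Rpl21 (0.50) and Rpl27a (0.86), of which Rpl21 was chosen after its values were seen. On the same scale 25.6% of all genes were higher in EpiSC and 6.32% lower.

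**Figure D3:**
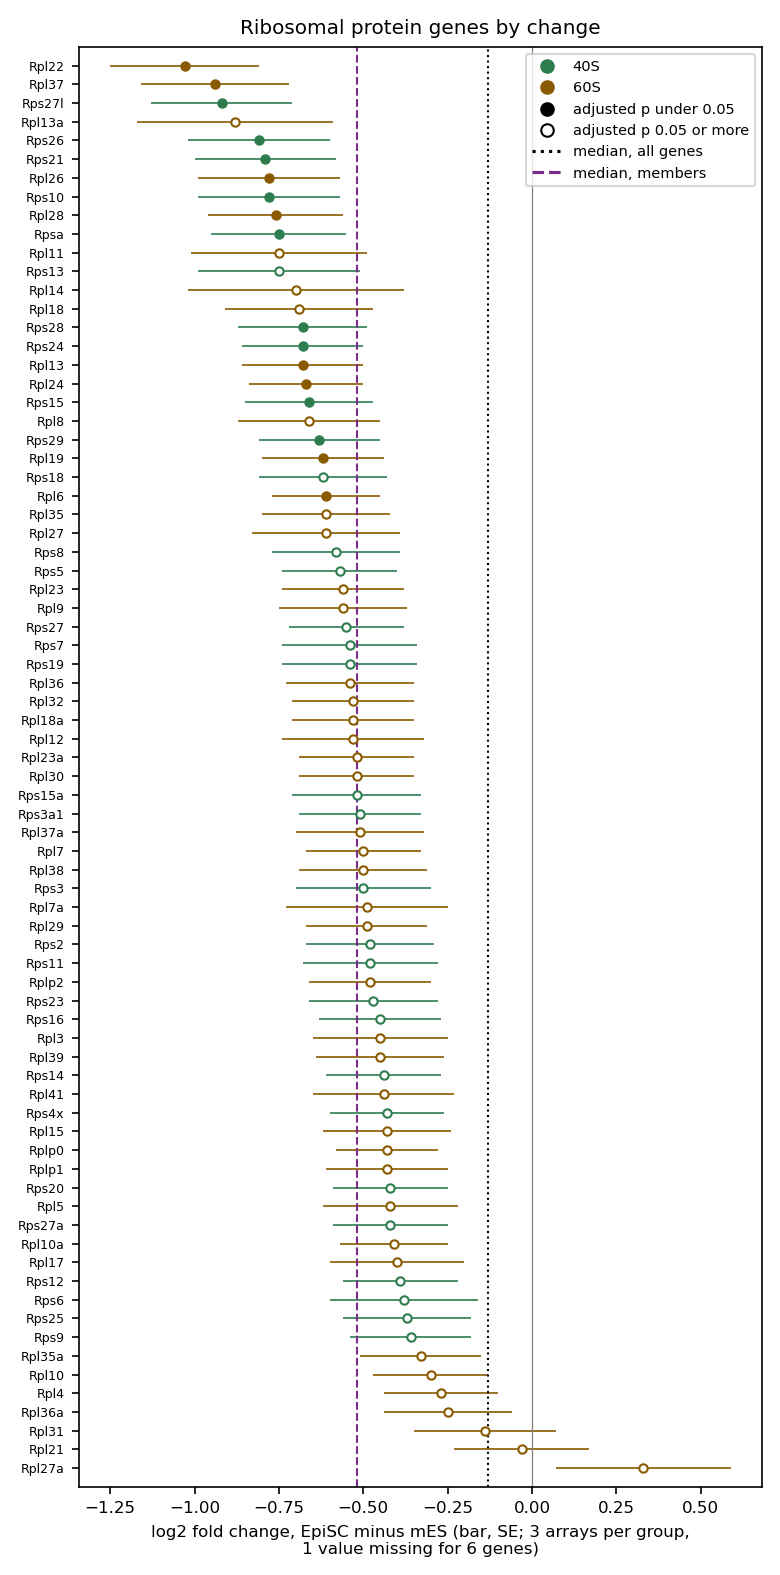
Differences (EpiSC minus mES, log2) of 76 of the 77 genes in order, with standard errors, 40S genes in green and 60S genes in brown, filled where the adjusted p is under 0.05. The points run from -1.03 (Rpl22) to 0.33 (Rpl27a), and most stay within 0.3 of the members' median, the dashed line at -0.52.

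The subunits gave like values. Of the 32 genes of the 40S subunit 10 were lower (median -0.54), and of the 45 genes of the 60S subunit 8 were lower (median -0.52), where 14.9% of all genes were lower. After quantile normalization 1 gene of each subunit was lower, where 13.8% of all genes were, and the medians were -0.11 and -0.08. For later gene counts at adjusted p under 0.05 on all arrays, the background of lower genes is 14.9%, or 13.8% after quantile normalization. Counts from other fits have other backgrounds. The share was 7.41% to 13.5% with 1 array left out, 3.48% without the arrays lowest in fibroblast markers and 6.52% with no scaling. At an unadjusted p under 0.05, 5107 of all 20689 genes were lower on all arrays, and 4484 after quantile normalization.

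Rps27l, the paralog of the zinc finger protein gene Rps27 and a known p53 target, was 6.66, 6.76 and 6.60 in mES replicates 1 to 3 and 5.55, 6.13 and 5.59 in EpiSC replicates 1 to 3. It was lower on every EpiSC array, by 0.92 ± 0.21 (SE, n = 3 per group, adjusted p = 0.0232), and by 0.55 after quantile normalization (adjusted p = 0.0443). Its adjusted p was 0.0646, 0.0715, 0.0781 and 0.0794 with mES replicate 1, mES replicate 2, EpiSC replicate 1 or EpiSC replicate 3 left out. Rps27 itself was 8.02, 8.14 and 7.95 against 7.40, 7.69 and 7.37, a difference of -0.55 ± 0.17 that missed the threshold (adjusted p = 0.0577). The distance between the pair moved by -0.37 from mES to EpiSC without overlap of the arrays, which was not tested.

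Another 3 genes of the 40S subunit were among the 8 largest called differences. Rps26, which lines the channel where the mRNA leaves the small subunit, was 5.93, 6.03 and 5.86 in mES and 5.02, 5.49 and 4.88 in EpiSC, and so lower on every EpiSC array (-0.81 ± 0.21, adjusted p = 0.0337). Rps21 (-0.79 ± 0.21, adjusted p = 0.0365) and Rps10 (-0.78 ± 0.21, adjusted p = 0.0381) were also lower. After quantile normalization the differences of these 3 genes were -0.46, -0.39 and -0.44 and none passed (adjusted p = 0.0971, 0.137 and 0.0975).

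Rpsa, the 40S protein also known as the laminin receptor, was 5.22, 5.49 and 5.52 in mES and 4.48, 4.97 and 4.55 in EpiSC and was lower (-0.75 ± 0.20, adjusted p = 0.0388). Rps3 and Rps2, which form part of the mRNA entry, had differences of -0.50 ± 0.20 and -0.48 ± 0.19 that did not pass (adjusted p = 0.106 and 0.107). Rps6, the substrate of S6 kinase downstream of mTOR, read 6.75 and 6.78 on mES replicates 2 and 3, with no value on replicate 1, and 6.19, 6.65 and 6.31 in EpiSC. Its difference of -0.38 ± 0.22 did not pass (adjusted p = 0.243). Rps19, the first gene found mutated in Diamond-Blackfan anaemia, had -0.54 ± 0.20 (adjusted p = 0.0924), and the ubiquitin fusion gene Rps27a -0.42 ± 0.17 (adjusted p = 0.119). Over the 8 listed proteins along the mRNA path, 3 were lower (Rps15, Rps26 and Rps28) and the median was -0.53, against 14.9% of all genes. After quantile normalization 0 of the 8 were lower in limma (2 at an unadjusted p under 0.05) and the median was -0.08.

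In the 60S subunit Rpl22, an RNA-binding protein on the outer face that cells can do without, had the largest difference of all 77 genes. It read 6.93, 7.07 and 6.93 in mES and 5.78, 6.36 and 5.69 in EpiSC, with no overlap. It was lower by 1.03 ± 0.22 (2.05-fold, adjusted p = 0.0192), and by 0.65 after quantile normalization (adjusted p = 0.0421). With mES replicate 1, mES replicate 2, EpiSC replicate 1 or EpiSC replicate 3 left out, its adjusted p lay between 0.0535 and 0.0676, and its other, dimmer probe read the other way, as given further on.

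Rpl37 was 6.51, 6.67 and 6.50 in mES and 5.53, 6.0 and 5.33 in EpiSC, lower by 0.94 ± 0.22 (adjusted p = 0.0244), and -0.60 after quantile normalization did not pass (adjusted p = 0.0548). Its lowest EpiSC value, on replicate 3, and its highest, on replicate 2, lay 0.68 apart, one of the 3 widest ranges within EpiSC. Rpl26, which sits near the tunnel exit and is known to bind p53 mRNA, was 7.63, 7.82 and 7.74 against 6.67, 7.29 and 6.86 and was lower (-0.78 ± 0.21, adjusted p = 0.0366). Rpl28 was lower as well (-0.76 ± 0.20, adjusted p = 0.0399), with 2 EpiSC values since the spot on replicate 1 was an outlier. Other called genes were Rps15, Rps24, Rps28, Rps29, Rpl6, Rpl13, Rpl19 and Rpl24, with differences from -0.68 to -0.61.

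Rpl5 and Rpl11, which with the 5S RNA form the particle that binds Mdm2, did not pass. Rpl5 read 8.36, 8.36 and 8.35 in mES and 7.71, 8.28 and 7.82 in EpiSC (-0.42 ± 0.20, adjusted p = 0.158). Rpl11 read 8.14, 7.36 and 7.37 in mES and 6.73, 7.09 and 6.81 in EpiSC (-0.75 ± 0.26, adjusted p = 0.08), and the high value of mES replicate 1 gave it one of the 3 widest ranges within mES (0.78). Rpl23, also known to bind Mdm2, had -0.56 ± 0.18 (adjusted p = 0.0653). With percentile scaling and by their brightest probes, all 3 genes were lower on each EpiSC array than on any mES array. After quantile normalization this still held for Rpl11 and Rpl23. Rpl5 then overlapped, with 17.65, 17.66 and 17.63 in mES and 17.57, 17.72 and 17.6 in EpiSC. The dimmer probe of Rpl23 was higher on each EpiSC array than on any mES array, as given further on, and that of Rpl11 overlapped.

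The acidic stalk proteins, which recruit the elongation factors, kept close to one another. Rplp0, Rplp1 and Rplp2 had differences of -0.43 ± 0.15, -0.43 ± 0.18 and -0.48 ± 0.18 (adjusted p = 0.0795, 0.121 and 0.0941), and 0 of the 4 stalk genes passed in limma (3 had an unadjusted p under 0.05). A pair of further Rplp0 probes, listed under the old name Arbp and so not taken by the symbol rule, gave -0.40 and -0.37. Rpl3, by the peptidyl transferase centre, had -0.45 ± 0.20 with 2 mES values (adjusted p = 0.149), and Rpl10a of the L1 stalk had -0.41 ± 0.16 (adjusted p = 0.109). Rpl38, whose loss in mice alters the translation of Hox mRNAs, had -0.50 ± 0.19 (adjusted p = 0.0974), close to the median of the 77.

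Of the 4 X-linked genes 0 passed in limma (1 had an unadjusted p under 0.05) and the median was -0.36. Rps4x had -0.43 ± 0.17 (adjusted p = 0.111), Rpl39, which lines the peptide tunnel, -0.45 ± 0.19 (adjusted p = 0.127), and Rpl10, which joins the 60S subunit late, -0.30 ± 0.17 (adjusted p = 0.222). After quantile normalization the median of these 4 was 0.06. Among the 18 listed genes whose human counterparts are mutated in Diamond-Blackfan anaemia 7 were lower and the median was -0.62, against 14.9% of all genes, with 0 called in limma after quantile normalization (2 at an unadjusted p under 0.05) and a median of -0.22.

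A few genes spread widely within a group. Rpl14 read 3.99, 3.50 and 2.79 in mES and 2.68, 2.59 and 2.90 in EpiSC, so that the groups overlapped (-0.70 ± 0.32, adjusted p = 0.145). Rpl31 read 2.24, 2.48 and 2.89 against 2.39, 2.48 and 2.30, also overlapping (-0.14 ± 0.21). Rpl13a, which takes part in interferon-induced translation control, read 6.52, 7.15 and 6.99 against 5.83, 6.50 and 5.69, and its large difference of -0.88 ± 0.29 missed the threshold (adjusted p = 0.0651).

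Several probes were available for many genes, and the dim ones did not always follow the bright one that stood for the gene. Of the 37 genes with more than 1 entered probe, 29 had all probes within 0.5 of one another in their difference and 6 had probes over 1 apart. With every probe tested on its own, 26 of the 126 were lower and 1 higher, where 14.3% and 11.8% of all probes were.

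The probe that was higher belongs to Rps20. It read -1.12, -0.88 and -0.39 in mES and 0.08, 0.08 and 0.51 in EpiSC, all above mES (1.02 ± 0.25, adjusted p = 0.0276), while the bright Rps20 probe had -0.42 ± 0.18. The 5 other genes with probes over 1 apart were Rpl22, Rpl23, Rpl27a, Rps24 and Rpsa.

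The other Rpl22 probe read 3.13, 3.05 and 3.83 in mES and 3.71, 3.64 and 3.65 in EpiSC, overlapping, with a difference of 0.33 ± 0.24. The 2 probes of Rpl22 thus differ in the sign of their difference, and the call comes from the bright one. Rpl27a, the one gene with a difference above 0 by its brightest probe (0.33 ± 0.26, adjusted p = 0.382), had another probe that read 1.01, 1.36 and 0.80 in mES and 0.06, 0.14 and -1.0 in EpiSC and was lower (-1.32 ± 0.34, adjusted p = 0.0339). The dimmer probes of Rpl23 (0.48 ± 0.19), Rps24 (0.70 ± 0.25) and Rpsa (0.82 ± 0.64) lay above 0 without passing. That of Rpl23 read 2.77, 2.80 and 2.94 in mES and 3.28, 3.1 and 3.58 in EpiSC, with no overlap, and passed after quantile normalization (0.66, adjusted p = 0.0429).

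These dim probes were read at high gain on all 6 arrays and most bright ones at low gain. By their brightest probe, 69 genes were read at low gain throughout (median -0.52, 15 called), 6 at high gain throughout (median -0.32, 1 called) and 2 at both (median -0.71, 2 called). The mouse genome also holds many processed pseudogenes of these genes, and probe sequences were not used here, so the part of gain and of related transcripts in these readings was not tested.

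Genes of the ribosome that the symbol rule does not take, paralogs and fusion genes, included a pair with larger changes than any of the 77. Of 8 measured, 3 were lower and 0 higher (6 and 0 at an unadjusted p under 0.05). Rpl39l, a paralog of Rpl39 known for its expression in testis and listed in the files as 4930517K11Rik, was 3.63, 3.82 and 3.98 in mES and -4.08, -4.0 and -7.80 in EpiSC. Every EpiSC value lay far below every mES value, with a difference of -9.10 ± 1.00 (adjusted p = 0.00224), and 2 of the 3 EpiSC arrays were well above background. Without EpiSC replicate 3, the array that was not, the difference was -7.85. Its other probe gave -5.31 ± 0.52, and over 22 alternatives the difference stayed between -9.75 and -5.31 and passed in each. Rpl39 differed by -0.45 on the same arrays.

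Rpl3l, the paralog of Rpl3 known from heart and skeletal muscle, read low throughout, -2.89, -2.45 and -2.69 in mES and -4.77, -4.66 and -5.30 in EpiSC. It was lower on every EpiSC array (-2.23 ± 0.23, adjusted p = 0.00193), between -2.35 and -1.21 over 23 alternatives, all past the threshold.

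Rpl22l1, which can take the place of Rpl22 in the ribosome, did not share the lower values of its partner's bright probe. It read 5.70, 5.85 and 5.75 in mES and 5.64, 6.05 and 5.83 in EpiSC, overlapping (0.07 ± 0.18, adjusted p = 0.774), and 0.41 after quantile normalization did not pass (adjusted p = 0.072). The distance between the bright probes of Rpl22l1 and Rpl22 moved by 1.11 from mES to EpiSC, and its values on the 3 EpiSC arrays lay outside those on the 3 mES arrays. That change was not tested, and the dim probes of both genes (0.33 for Rpl22, -0.31 for Rpl22l1) went the other way.

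Fau, the fusion gene of Rps30, had -0.53 ± 0.20, the 40S scaffold protein gene Rack1 -0.45 ± 0.18 and Rpl36al -0.64 ± 0.25, none of which passed (adjusted p = 0.0927, 0.108 and 0.104). Rpl7l1, a paralog of Rpl7, had -0.26 ± 0.17 (adjusted p = 0.304). Rpl10l was not tested.

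**Figure D4:**
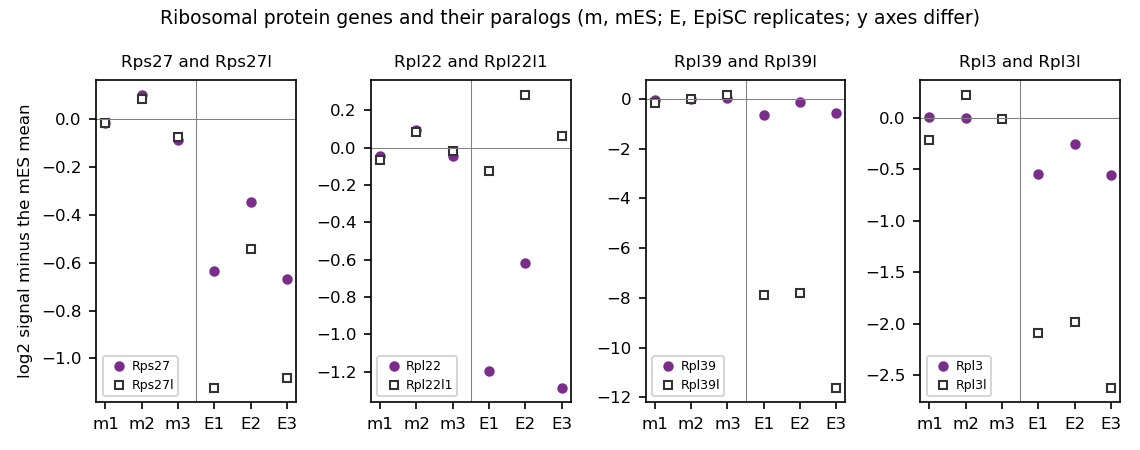
Log2 signal minus the gene's mES mean on each array (m1 to m3, mES replicates; E1 to E3, EpiSC replicates) for 4 genes (filled circles) and their paralogs (open squares), with a y axis of its own in each panel. Rps27l lies below Rps27 in EpiSC, Rpl22 falls while Rpl22l1 stays near 0, and Rpl39l and Rpl3l lie far below Rpl39 and Rpl3.

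The genes that build the ribosome showed medians of the same sign. Of 63 measured factors of ribosome assembly and rRNA processing, 13 were lower and 0 higher (median -0.38), and 7 and 0 after quantile normalization (median -0.23). They included the 40S maturation kinase gene Riok2 (-1.32 ± 0.22, adjusted p = 0.00774), Wdr12 of the complex that processes 60S precursors (-1.11 ± 0.21, adjusted p = 0.0133) and Tcof1, the treacle gene of rDNA transcription (-1.10 ± 0.16, adjusted p = 0.0059). The count was 3 to 17 with 1 array left out and 1 without the arrays lowest in fibroblast markers. Among 14 RNA polymerase I genes 5 were lower and 0 higher (3 and 0 after quantile normalization), with the initiation factor Rrn3 at -0.96 ± 0.19, the subunit gene Znrd1 at -0.91 ± 0.25 and the terminator Ttf1 at -0.82 ± 0.17. That count was 0 without EpiSC replicate 1 (5 at an unadjusted p under 0.05) and 1 without mES replicate 2.

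The 78 measured mitochondrial ribosomal protein genes, whose products translate the mitochondrial mRNAs, had 22 lower and 0 higher (median -0.41). After quantile normalization 19 were lower and 2 higher with a median of -0.32, where that of the 77 cytosolic genes was -0.08. The largest changes were those of Mrps24 (-1.40 ± 0.23), Mrpl49 (-1.37 ± 0.21) and Mrps12 (-1.28 ± 0.35). The count ran from 7 to 24 with 1 array left out and was 0 without the arrays lowest in fibroblast markers (13 at an unadjusted p under 0.05).

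Translation factors had calls in both directions. Of 40 initiation factor genes 3 were lower (Eif4a2 -0.99 ± 0.26, Eif4e2 -0.96 ± 0.19, Eif3k -0.75 ± 0.19) and Eif4g3, a scaffold of the cap-binding complex, was higher (1.43 ± 0.31, adjusted p = 0.0197), with a median of -0.26 and of -0.01 after quantile normalization. Of 16 elongation and release genes 3 were lower, Eef2k, the kinase that inhibits elongation factor 2 (-1.09 ± 0.19), Eef1e1 (-0.81 ± 0.17) and Eef1b2 (-0.60 ± 0.17), and none higher. Among 17 further genes with TOP mRNAs, Rack1 included, Eef1b2 was lower and the histone chaperone gene Nap1l1 higher (0.94 ± 0.16, adjusted p = 0.00859). Their median was -0.35, and 0.00 after quantile normalization.

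In the TOR pathway, 5 of 18 genes were lower and 1 higher around a median of -0.08. Sesn2, a leucine sensor that restrains TORC1 (-1.65 ± 0.18), Eif4ebp1, the cap-binding inhibitor that TORC1 phosphorylates (-1.64 ± 0.29, adjusted p = 0.0101), and Tsc1 (-1.52 ± 0.32) were lower, and the Eif4a inhibitor gene Pdcd4 was higher (1.32 ± 0.20, adjusted p = 0.00578). Over 23 alternatives the difference of Sesn2 ran from -1.77 to -0.066 and passed in 22.

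The p53 list, taken because ribosomal proteins bind Mdm2, had the largest median among these lists. Of 16 genes 12 were lower and 0 higher (median -1.21), and 11 and 1 after quantile normalization (median -1.10). Ccng1 read 3.83, 3.98 and 3.54 in mES and 0.64, 2.42 and 1.37 in EpiSC and was lower (-2.31 ± 0.44, adjusted p = 0.0131). Trp53inp1 (-2.03 ± 0.23, adjusted p = 0.00246) and Sesn2, which the TOR list holds too, followed. Trp53 itself was not called and is named outside the rule for other lists given under processing. It read 1.22, 1.48 and 1.38 in mES against 1.84, 1.88 and 1.88 in EpiSC, above mES on every EpiSC array. Its difference of 0.51 ± 0.16 missed the threshold in limma (adjusted p = 0.0567) and passed after quantile normalization (0.55, adjusted p = 0.0339). Another Trp53 probe gave -0.50. The count was 7 to 11 with 1 array left out, 5 without the arrays lowest in fibroblast markers and 7 with no scaling.

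**Figure D5:**
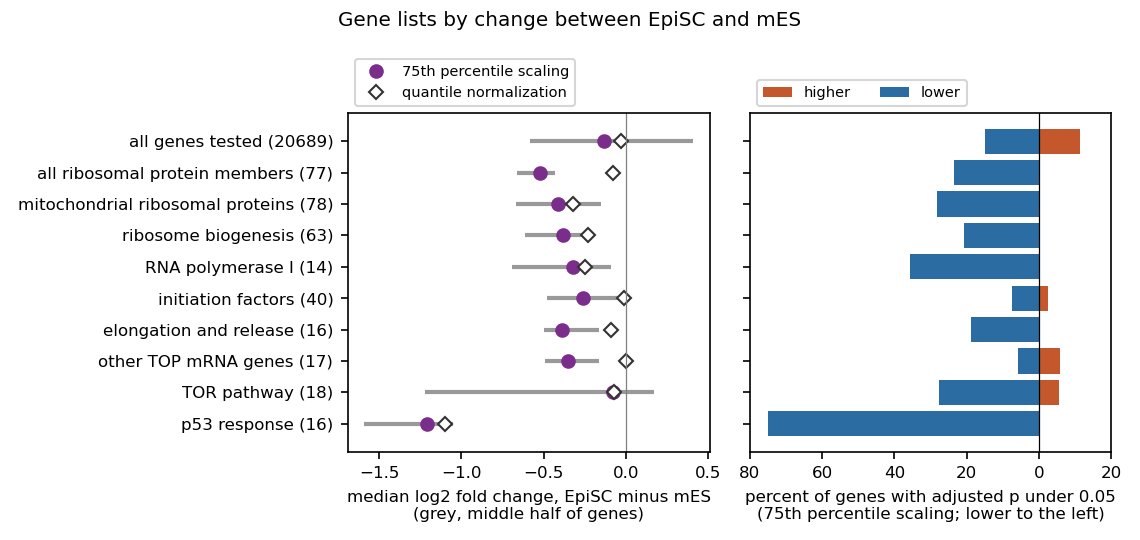
Left, median difference (EpiSC minus mES, log2) of each gene list, with the interquartile range of its genes as a grey bar and the median after quantile normalization as an open diamond. Right, percent of each list lower (blue, left) or higher (orange, right) at adjusted p under 0.05; of the lists plotted the 77 ribosomal protein genes have the narrowest grey bar, and they move to -0.08 after quantile normalization, and the p53 list stays at -1.10.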

How the data were processed

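Total RNA (TRIzol) of 6 cultures was labelled with Cy3 and read on 1-colour Agilent arrays, per the labels' protocols. Per the file headers, the deposited scanner files hold intensity per spot on a linear scale, from Feature Extraction 9.1.3.1 of Agilent, with detrending on, local background subtraction off and bright spots scaled up from a low-gain scan; no normalization joins the arrays. The value table of the series, an intensity deposited by the authors, differed from that signal by at most 0.00716 on the log2 scale, with no centring or ratio; its column medians were 85.1, 92.3 and 74.6 (mES) and 126, 87.2 and 90.9 (EpiSC). The files held 0 unused per-sample columns. For the probes' genome build: not given in the sources used here.

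Control spots and outlier spots (12 to 24 per array) were left out. The log2 processed signal minus the array's 75th percentile was averaged per probe, and 55.7% of 41174 probes were named through RefSeq accessions (GRCm38.p6). A probe entered if well above background on every array of a group, with at most 1 missing value per group, and a gene took its entering probe with the highest mean. A member gene used only member probes. The cell types were tested against each other by limma 3.58.1 under R 4.3.3 (lmFit, eBayes, no covariate, two-sided), with Benjamini-Hochberg adjustment over 20689 genes and a threshold of 0.05. All gene p-values are limma's and errors its standard errors. On simulated data of 20689 genes, 62 of 100 genes changed by 2 on the log2 scale and 5 of 100 changed by 1 were recovered, with 7 false calls. No other gene was changed there, while 5433 genes were called in the real data. The adjustment was therefore stricter in the simulation, and its recovery cannot be carried over to these data.

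The members, gene lists and tests were chosen with earlier results of these data known. Members named are the 8 largest called changes per direction, a fixed set of 22, those with probes over 1 apart or called in opposite directions, and the 3 widest ranges per group; of other lists, up to 3 called genes per direction, the paralogs and the 2 brightest markers. Some genes that enter the counts are not reported here. Replicate numbers follow deposit order and pair nothing.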

Additional observations from a re-analysis of the deposited data

How the results depend on the processing

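The count of ribosomal protein genes lower in EpiSC (18) was 6 with scaling to the array median, 2 with quantile normalization or cyclic loess, 33 with normexp background, 64 with slide as a random block (whose correlation was -0.68, so that calls gained there are not support), 56 with a mean-variance trend, 8 with the lowest probe (1 higher), 0 at slide position 4 only (11 at an unadjusted p under 0.05), 0 with no scaling (3) and 0 (3) once both arrays low in fibroblast markers were dropped. It was 0 to 34 with 1 array left out. The other alternatives over 77 genes gave 13 to 22. The share of all genes lower was 12.4% (array median), 13.8% (quantile), 13.3% (loess), 19.9% (normexp), 33.5% (slide block), 16.4% (trend) and 12.9% (lowest probe). It was 7.05% at position 4, 6.52% with no scaling, 3.48% without the arrays low in fibroblast markers and 7.41% to 13.5% with 1 array left out. In the other alternatives over 77 genes it was 12.3% to 21.8%. Position 4 only, no scaling, leaving out the arrays low in fibroblast markers, probes never scaled up from the low gain (22 genes, 1 higher and 1 lower) and centring on the members were chosen after seeing the data. The median difference moved to -0.08 (quantile), -0.11 (loess), -0.29 (high-gain probes) and -0.18 (no scaling, where all genes lay at 0.21). Of 126 probes, 27 were called, and 12, 6, 6, 51, 99 and 76 with array median, quantile, loess, normexp, slide block and trend, 2 at position 4, 0 without the arrays low in fibroblast markers, 1 with no scaling and 0 to 45 with 1 array left out. Members off their own median were 0 in limma, 2 with normexp, 1 with the mean of probes, 3 with the lowest probe, 11 with slide block, 1 with EpiSC-7 averaged, 5 with trend, 1 among high-gain probes and 0 to 2 with 1 array left out. Calls over all genes (5433) were 8768 with no filter, 11772 with slide block, 2718 at position 4, 1581 without the arrays low in fibroblast markers and 2897 to 4949 with 1 array left out.

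Of 738 values for the 33 named members, 551 kept sign and side of the threshold, 110 lost the call, 43 gained it and 34 turned sign. With quantile normalization Rpl10 turned to 0.12, Rpl3 0.02, Rplp1 0.014, Rps27a 0.07, Rps4x 0.0033, Rps6 0.025 and Rack1 0.0044. With cyclic loess Rpl10 turned to 0.064, Rpl3 0.0075, Rpl5 0.048, Rplp1 0.064, Rplp2 0.0081, Rps2 0.021, Rps20 0.065, Rps27a 0.0097, Rps4x 0.02 and Rack1 0.021. With no scaling Rpl10 turned to 0.042, Rpl31 0.20, Rpl7l1 0.088 and Perp 0.03. With the mean of probes Rpl27a turned to -0.50, Rpl31 0.08, Rps20 0.30, Rpsa 0.037 and Rpl22l1 -0.12. With the lowest probe Rpl22 turned to 0.33, Rpl23 0.48, Rpl27a -1.32, Rpl31 0.30, Rps20 1.02, Rps24 0.70, Rpsa 0.82, Rpl22l1 -0.31 and Trp53 -0.50, and Rpl22, Rpl23, Rps20 and Rpsa gave the same values among high-gain probes. At position 4 Rpl31 was 0.08. With 1 array left out it ran from -0.29 to 0.033 (without mES replicate 3), and Rpl22l1 ran from -0.032 to 0.18, Pmaip1 from -2.58 to 0.36 and Perp from -0.52 to 0.021, each turning without EpiSC replicate 2. The causes were not tested. No paired analysis was possible because the numbers were given in accession order and name no shared culture.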
